A study of Mus musculus with 38 samples.

Results

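Transcripts of the cells that build brain capillaries were followed through 10 genes chosen by name: Cldn5, Cdh5, Pecam1, Flt1, Kdr, Tek, and Slco1a4 for the endothelium and Pdgfrb, Rgs5, and Vtn for the mural cells that wrap it. Each symbol matched 1 of the 54165 genes in the count table. RNA-seq reads were counted in 38 libraries from 25 adult FVB/NJ mice, 20 libraries from the prefrontal cortex (PFC) and 18 from the hypothalamus (Hypo), and 13 mice gave both tissues. WT mice were compared with their Ube3a2X littermates, which are homozygous for a Ube3a transgene and so carry 2 transgene copies beside their own gene. The PFC had 5 libraries of each sex and genotype. In the Hypo each sex had 4 WT and 5 Ube3a2X libraries.

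Brain endothelial cells form the blood-brain barrier: tight junctions close the gaps between them, and transporters decide what crosses. VEGF and angiopoietin receptors on their surface govern growth and stability of the vessel. Pericytes, the mural cells of capillaries, sit in the shared basement membrane and are recruited by endothelial PDGF-B acting on the receptor that Pdgfrb encodes. Bulk tissue was sequenced, so fewer cells of a type and less RNA per cell cannot be told apart in any value given here.

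Upstream sequence was found for 7 of the 10 genes in the RefSeq promoter table of GRCm38.p6, and the 250 bases before the start of each were read 5′ to 3′ on the gene's own strand. Windows are printed for 5 genes: Flt1, Kdr, and Tek, whose transcripts varied together from library to library, Cldn5, which did not vary with them, and Rgs5, with the largest difference between the tissues. Capitals mark the ETS core AGGAAG, a binding motif of the ETS family that includes the endothelial regulators Erg and Fli1, searched on both strands with no overlapping matches.
Flt1, chr5:147726012-147726261, minus strand: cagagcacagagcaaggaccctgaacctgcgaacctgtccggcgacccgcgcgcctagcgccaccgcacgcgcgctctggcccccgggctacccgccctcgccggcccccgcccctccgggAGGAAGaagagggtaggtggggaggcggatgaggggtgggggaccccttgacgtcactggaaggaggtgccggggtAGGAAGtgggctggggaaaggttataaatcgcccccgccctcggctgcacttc
Kdr, chr5:75978456-75978705, minus strand: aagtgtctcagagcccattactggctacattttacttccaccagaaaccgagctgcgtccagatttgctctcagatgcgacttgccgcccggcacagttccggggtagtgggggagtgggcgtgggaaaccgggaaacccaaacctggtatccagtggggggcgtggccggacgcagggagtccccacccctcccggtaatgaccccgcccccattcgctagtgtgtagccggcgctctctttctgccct
Tek, chr4:94739039-94739288, plus strand: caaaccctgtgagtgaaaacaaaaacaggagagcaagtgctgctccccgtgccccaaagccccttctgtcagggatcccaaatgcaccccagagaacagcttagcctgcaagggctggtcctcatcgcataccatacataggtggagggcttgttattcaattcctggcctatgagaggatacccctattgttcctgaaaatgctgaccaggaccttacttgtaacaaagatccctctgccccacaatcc
Cldn5, chr16:18776597-18776846, plus strand: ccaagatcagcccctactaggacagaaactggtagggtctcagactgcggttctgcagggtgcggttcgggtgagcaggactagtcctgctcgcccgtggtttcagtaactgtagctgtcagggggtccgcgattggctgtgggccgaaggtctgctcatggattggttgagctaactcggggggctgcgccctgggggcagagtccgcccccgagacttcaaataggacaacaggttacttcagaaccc
Rgs5, chr1:169655251-169655500, plus strand: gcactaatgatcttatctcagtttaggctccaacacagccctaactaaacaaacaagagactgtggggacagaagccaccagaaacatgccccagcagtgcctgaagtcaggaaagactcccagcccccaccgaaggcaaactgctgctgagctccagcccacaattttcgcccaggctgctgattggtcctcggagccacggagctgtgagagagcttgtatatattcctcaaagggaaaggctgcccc

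The core occurred in 2 of the 7 windows, with 2 copies before Flt1, at 129 and 53 bases from the start, and 1 copy on the reverse strand before Slco1a4, at 104 bases. Of all 32851 promoter windows of this length, 29.5% held at least 1 copy. Base composition separated the printed sequences: the Flt1 window was 70.4% GC with 23 CpG dinucleotides, and the Cldn5 and Kdr windows had 12 and 16. Tek and Rgs5 had 2 and 4 CpG, against a median of 6 over all windows. The letters TATAAA stood before Flt1 and Vtn and in 7.59% of all windows. Cdh5, Pecam1, and Pdgfrb were not in the table.

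All 10 genes had reads in every library. Counted reads per PFC library were 36.9 to 69.1 M (M, mega), Hypo libraries had 39.1 to 380.8 M, and the smallest count of any member in any library was 248, for Cdh5. Ube3a was at 183 to 259 CPM (counts scaled to library size, TMM-normalised) in WT and 686 to 2169 CPM in Ube3a2X PFC, and at 104 to 355 CPM in WT and 745 to 1724 CPM in Ube3a2X Hypo, with no overlap of the genotypes. Tissue identity fitted the labels: the summed level of 5 cortical excitatory genes was 1812 CPM or more in every PFC library and at most 17.4 CPM in the Hypo, and that of 7 hypothalamic genes was at most 3.19 CPM in the PFC and at least 402 CPM in the Hypo. Hypo WT female 471 stood apart, with 4588 CPM summed over 5 pituitary genes where the median Hypo library had 102 CPM. That library also had the highest summed level of 5 blood genes in its tissue, 301 CPM against a Hypo median of 117 CPM. Hypo WT male 423 had a RIN of 6.8 where the median Hypo library had 8.95, and PFC Ube3a2X male 258 had the highest level of 9 of the 10 members.

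Per kilobase of exon, the mural genes Rgs5 and Vtn were the most abundant. Rgs5, a regulator of G protein signalling and a standard pericyte marker, had a median of 31.1 CPM per kb in the PFC and 18.7 in the Hypo. Vtn, which encodes the matrix protein vitronectin, followed with 23.8 and 17.3 CPM per kb. The tight junction gene Cldn5 came next at 10.7 and 6.72 CPM per kb, ahead of the organic anion transporter gene Slco1a4 at 8.38 and 6.46 and of Flt1 at 8.25 and 5.68. Flt1 encodes VEGF receptor 1, a high-affinity receptor that also serves as a decoy. The last 5 places were in the same order in both tissues, from Pdgfrb at 4.79 in the PFC and 4.22 in the Hypo through Tek, Cdh5, and Pecam1 to Kdr at 2.54 and 2.09 CPM per kb.

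Neighbours in that order mostly overlapped. Between adjacent genes only Vtn and Cldn5 in the Hypo had ranges over libraries that did not meet, 15.3 to 25.5 against 3.04 to 14.9 CPM per kb. Within single libraries the order was steadier at some steps: Rgs5 was above Vtn in all 20 PFC libraries and in 15 of 18 Hypo libraries. Slco1a4 was above Flt1 in 13 of 20 PFC and 18 of 18 Hypo libraries, and Cldn5 was above Slco1a4 in 19 of 20 PFC libraries and in 9 of 18 Hypo libraries. All values per kb use the exon length of the gene and assume even coverage of it.

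**Figure D1:**
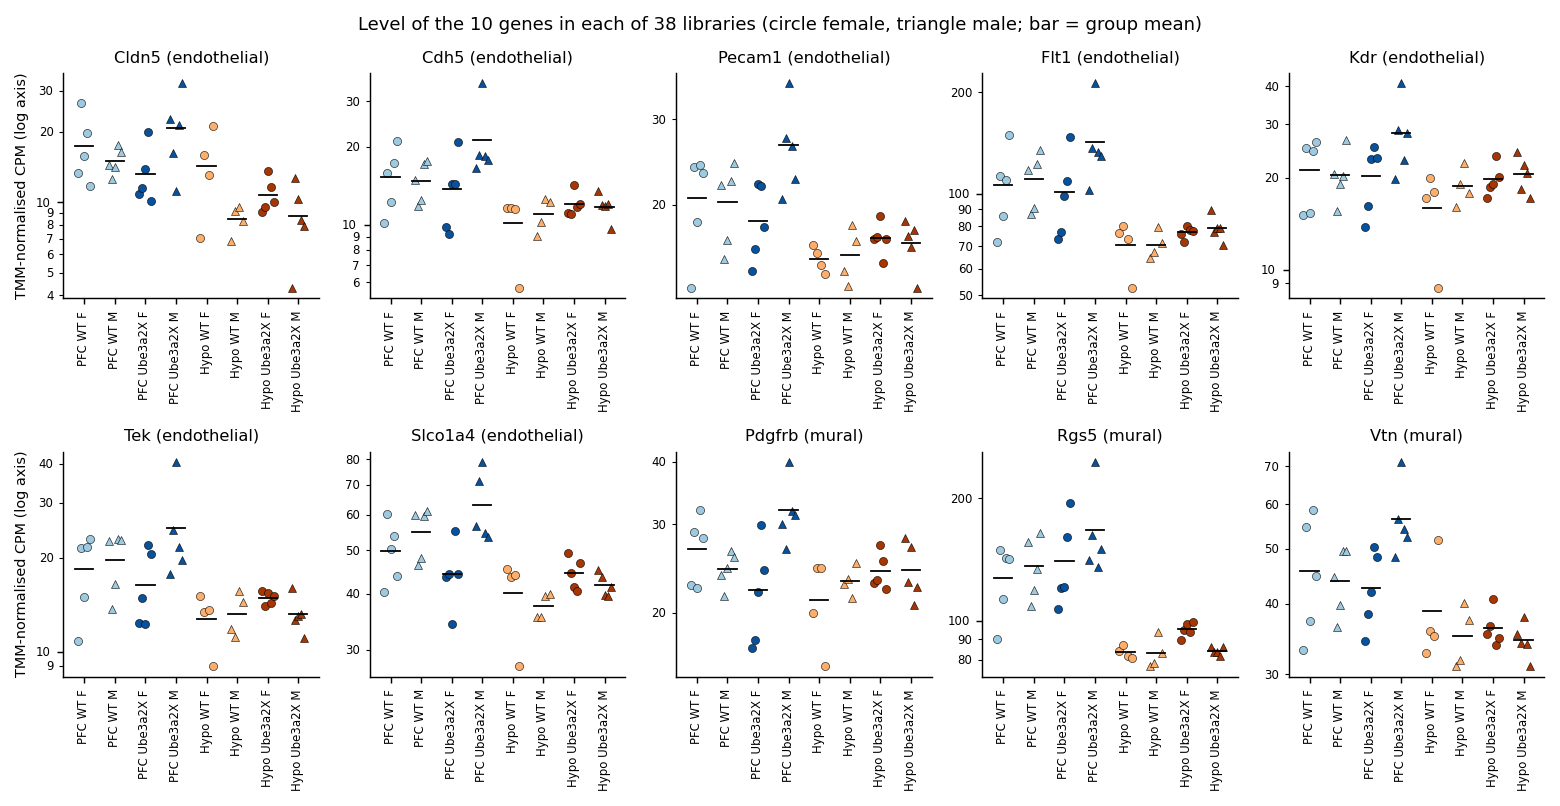
Level of the 10 genes in each library as TMM-normalised CPM on a log axis, 1 panel per gene, with the 8 groups of tissue, genotype, and sex on the horizontal axis. Points are libraries (circles females, triangles males) and bars are group means. PFC groups mostly sit above Hypo groups, most clearly for Rgs5, and 1 library of PFC Ube3a2X males (mouse 258) is the highest for 9 genes, all but Cldn5, for example 246 CPM for Rgs5.

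All 10 genes were higher in the PFC than in the Hypo on average, and 9 passed the test on all 38 libraries. With the mouse as a block and RIN kept, in the 13 mice that gave both tissues, 0 passed, as given below. Rgs5 differed most, 1.86-fold, followed by Flt1 at 1.72-fold, and Tek and Cdh5 were each about 1.58-fold higher (1.585 and 1.582). Pdgfrb, the PDGF-B receptor gene, was 1.16-fold higher and did not pass. Of all 22282 genes tested, 31% were called higher in the PFC and 32.4% higher in the Hypo, and the median log2 difference of all genes was -0.02 against 0.53 for the 10 members. The test was edgeR's quasi-likelihood test on all 38 libraries with RIN as a covariate and Benjamini-Hochberg adjustment over all genes. Dissection (micropunches against excised tissue), extraction kit, and RNA input also differed between the tissues, and their part cannot be told apart from that of tissue. The median share of correctly stranded reads was 93.7% in the PFC and 98.4% in the Hypo, and its part was not tested.

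Rgs5 ranged from 90.1 CPM through a median of 141 to 246 CPM in the PFC, and from 77.2 through 85.1 to 99.2 CPM in the Hypo. All but 1 PFC library, WT female 93, lay above every Hypo library. The log2 difference was 0.90 (SE 0.12, adjusted p = 3.13e-08), and the PFC was higher in 13 of 13 mice that gave both tissues. Full separation of the tissues held for none of the 10 members and for 9.92% of all genes in the direction of the PFC. Vtn lay between 33.0 and 71.3 CPM in the PFC (median 48.4) and between 31.0 and 51.9 CPM in the Hypo (median 35.1), so the ranges overlapped. Its log2 difference was 0.51 (SE 0.11, adjusted p = 1.55e-04), with 12 of 13 mice higher in the PFC. Pdgfrb ranged from 17.0 through 26.2 to 40.0 CPM in the PFC and from 15.6 through 23.1 to 28.1 CPM in the Hypo. Its difference of 0.22 (SE 0.10) had an adjusted p of 0.0658, and 9 of 13 mice were higher in the PFC.

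Both VEGF receptor genes passed. Flt1 ranged from 71.9 through 112 to 213 CPM in the PFC and from 52.6 through 76.7 to 89.3 CPM in the Hypo, and 15 of 20 PFC libraries were above the highest Hypo library. The log2 difference was 0.78 (SE 0.14, adjusted p = 1.09e-05), with 12 of 13 mice higher in the PFC. Kdr, which encodes VEGF receptor 2, the main signalling receptor, ranged from 13.8 through 23.0 to 40.9 CPM in the PFC and from 8.70 through 18.9 to 24.4 CPM in the Hypo. Here the difference was 0.40 (SE 0.16, adjusted p = 0.0288), 8 of 13 mice were higher in the PFC, and the gap between the receptors was not itself tested. Tek encodes Tie2, the angiopoietin receptor, and ranged from 10.8 through 21.0 to 40.6 CPM in the PFC and from 8.97 through 13.8 to 16.0 CPM in the Hypo, a log2 difference of 0.66 (SE 0.16, adjusted p = 5.98e-04). In 10 of 13 mice it was higher in the PFC.

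Junction and surface genes of the endothelium also passed. Cdh5, which encodes VE-cadherin of the adherens junction, ranged from 9.22 through 16.2 to 35.1 CPM in the PFC and from 5.71 through 11.7 to 14.3 CPM in the Hypo, with a log2 difference of 0.66 (SE 0.17, adjusted p = 8.25e-04). Pecam1, which encodes the adhesion molecule CD31, ranged from 13.5 through 22.0 to 35.6 CPM and from 13.4 through 16.7 to 18.9 CPM, with a log2 difference of 0.45 (SE 0.12, adjusted p = 0.0016). Both were higher in the PFC in 11 of 13 mice. Cldn5, which encodes the main claudin of the barrier, had the widest error of the 10: 10.1 through 15.1 to 32.2 CPM in the PFC, 4.30 through 9.52 to 21.1 CPM in the Hypo, and a log2 difference of 0.55 (SE 0.22, adjusted p = 0.0321). All 20 PFC libraries nevertheless lay above the Hypo median, and the PFC was higher in 13 of 13 mice. Slco1a4, a barrier transporter, ranged from 34.2 through 53.8 to 78.9 CPM and from 27.5 through 41.4 to 49.4 CPM, with a log2 difference of 0.41 (SE 0.10, adjusted p = 9.04e-04) and 9 of 13 mice higher in the PFC.

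The RIN of PFC libraries was 6.7 to 8.9 and that of Hypo libraries, apart from WT male 423, was 8.8 to 9.3, so the covariate and the tissue were nearly confounded. With a replicate block for the mouse, in the 13 mice that gave both tissues and with RIN kept, 0 of the 10 members were called by edgeR, and 1 had an unadjusted p under 0.05 (Rgs5, adjusted p = 0.0503). The log2 differences were also smaller in that fit, with a median over the members of 0.23 in place of 0.53: Kdr was at 0.01 (0.007), Pecam1 at 0.13, Cldn5 at 0.17, Slco1a4 at 0.19, Cdh5 at 0.28 (0.275), and Pdgfrb at -0.04, while Rgs5 was at 0.64 and Flt1 at 0.49. With all 38 libraries and 2 surrogate variables the median was 0.35. With the same replicate block and no RIN, the median was 0.43 and 8 members were called, all but Kdr and Pdgfrb, and with all 38 libraries and no RIN all 10 were called. Without Hypo WT male 423 the log2 difference of Cldn5 was 0.38 (adjusted p = 0.25) and that of Kdr 0.40 (adjusted p = 0.102), and neither was called. Kdr was also lost without PFC Ube3a2X male 258 (0.30, 0.303), Ube3a2X female 468 (0.37), WT female 395 (0.36), or WT male 403 (0.35), and Cldn5 without PFC WT female 395 (0.45). Pdgfrb was called without any 1 of 7 libraries, which were Hypo WT females 398 and 410 and PFC libraries 417, 462, 253, 262, and 251, at 0.22 to 0.27. Without the 3 libraries that stood apart (PFC Ube3a2X male 258, Hypo WT female 471, and Hypo WT male 423) 6 members were called, and Cldn5, Kdr, and Pecam1 were lost. Within WT mice alone 7 members were called, and 13516 of all 22282 genes in either direction. Within Ube3a2X mice alone 7 members and 12377 of all 22282 genes were called. All 10 log2 differences were above 0 in both.

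**Figure D2:**
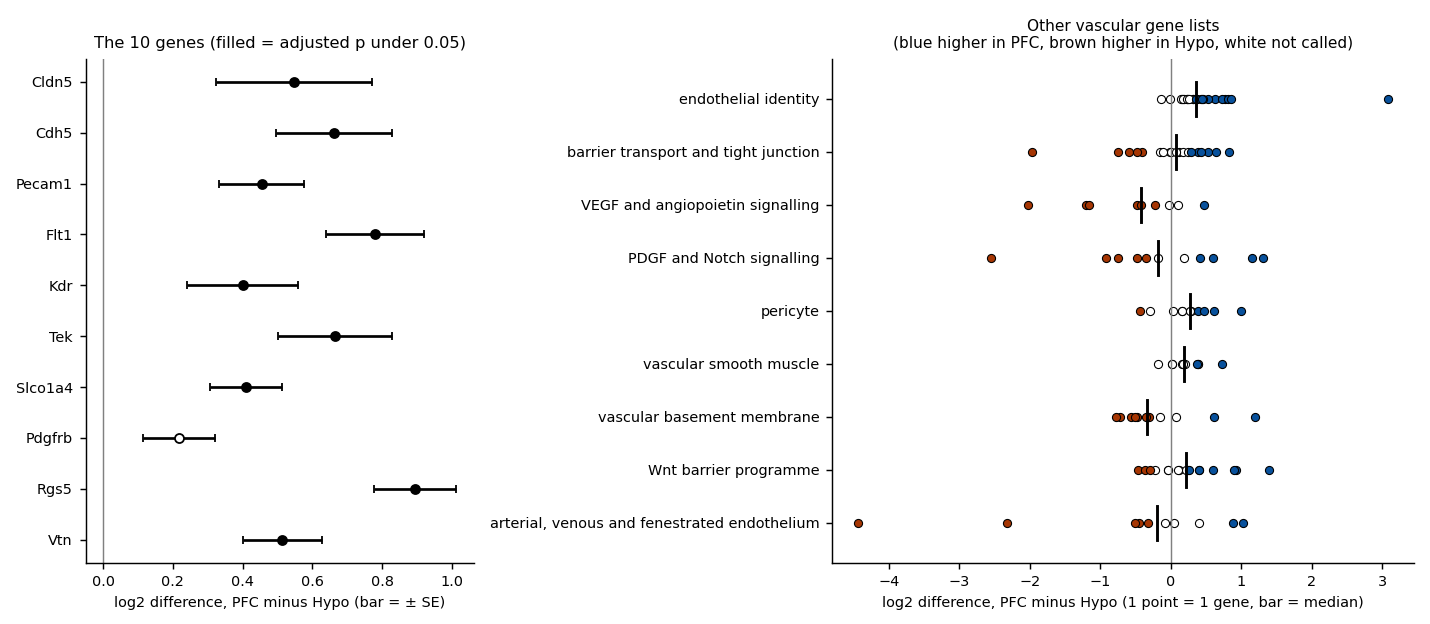
Log2 difference between the tissues, PFC minus Hypo, for the 10 genes with the SE as bars (left, filled points have an adjusted p under 0.05) and for the genes of 9 other vascular lists (right, 1 point per gene, bars are list medians). The 10 genes lie between 0.22 and 0.90, and the lists of ligands and basement membrane lie mostly below 0.

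Other genes of the vessel wall followed the 10 members only in part. Among 25 further endothelial genes, 12 were called higher in the PFC and 0 higher in the Hypo, with a median log2 difference of 0.35. Cd34, a surface sialomucin that is not restricted to vessels, had the largest at 3.08 (SE 0.07, adjusted p = 1.07e-28), and Erg, an ETS factor, was higher by 0.72 (SE 0.14, adjusted p = 4.80e-05). Of 11 pericyte genes, 4 were called higher in the PFC, among them Anpep (0.998) and Art3 (0.47), and 1, Cspg4, was called lower (log2 difference -0.44). Over all genes, 31% were called higher in the PFC and 32.4% higher in the Hypo. Of 10 smooth muscle genes only Pln (0.72) and Mylk (0.37) were called, both higher in the PFC, and the contractile genes Acta2, Tagln, and Myh11, chosen after their values were seen, had differences of 0.21, 0.16, and 0.17 with adjusted p of 0.387, 0.498, and 0.487.

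Among 19 transporter and tight junction genes, 6 were called higher in the PFC and 5 higher in the Hypo, shares near the 31% and 32.4% of all genes. The thyroid hormone transporter gene Slco1c1 and the organic anion transporter gene Slc22a8 were higher in the PFC by log2 differences of 0.82 and 0.64, whereas Cgn, which encodes the junction protein cingulin, was lower there, at -1.97. Among 17 genes of the Wnt signal that maintains the barrier, 6 were called higher in the PFC, with the ligand gene Wnt7b at 1.39 and the Wnt target Apcdd1 at 0.89, and 3 higher in the Hypo, including the ligand gene Wnt7a at -0.47 and the Norrin co-receptor gene Tspan12 at -0.30 (-0.295).

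More signalling and matrix genes were higher in the Hypo than in the PFC. In the VEGF and angiopoietin list, 6 of 9 genes were called higher in the Hypo, led by the co-receptor gene Nrp2 at -2.03 and the Flt1 ligand gene Pgf at -1.20, and 1, Vegfc, was higher in the PFC (0.47). In the PDGF and Notch list 4 of 11 were higher in the PFC and 5 higher in the Hypo, where 31% and 32.4% of all genes were called in those directions. Pdgfb, the ligand of the Pdgfrb product, was higher in the PFC by 1.30 (SE 0.16, adjusted p = 4.80e-09), and the Notch target Hey1 by 1.16, while Heyl and Pdgfd were lower at -2.56 (-2.555) and -0.93. Of 12 basement membrane genes 8 were higher in the Hypo, including Lamb2 (-0.78) and Col4a2 (-0.73), and 2 were higher in the PFC, Lama4 (1.19) and Itga1 (0.62). Among 10 tested genes of arterial, venous, or fenestrated endothelium, Efnb2 (1.02) and Ackr1 (0.88) were higher in the PFC, and 5 were higher in the Hypo, with Nr2f2 at -2.32 and Esm1 at -4.43, the latter with a median of 0.039 CPM in the PFC and 0.936 CPM in the Hypo. Several genes of these lists are also expressed by neurons or glia.

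Markers of other cells differed between the tissues in both directions. The summed level of 6 neuronal genes spanned 8053 to 12655 CPM over PFC libraries and 3201 to 4464 CPM over Hypo libraries, and for 6 oligodendrocyte genes the spans were 962 to 3453 and 3137 to 5120 CPM. Microglial genes were called higher in the PFC for 4 of 6, and blood genes higher in the Hypo for 3 of 5, where 31% and 32.4% of all genes were called in those directions. The part of cell composition in the difference of the 10 members was not tested.

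None of the 10 genes was called for genotype in the PFC. Averaged over the sexes, Ube3a2X minus WT lay between -0.01 and 0.13 on the log2 scale, with a median of 0.05, the smallest adjusted p was 0.696 (Rgs5, 0.13, SE 0.08), and 0 members had an unadjusted p under 0.05. Without PFC WT female 93 that median was -0.03, and without PFC WT female 397 it was 0.13. Of the 10900 genes tested, 0.0183% were called. In Hypo, 9 members were tested, since the variance filter removed Rgs5, and their log2 differences lay between -0.01 (-0.005, Cldn5) and 0.10 (Pecam1), with adjusted p from 0.93 upward and 0.00843% of 11869 genes called. Without the variance filter the difference of Rgs5 in the Hypo was 0.099 (SE 0.04, adjusted p = 0.948). The 95% intervals of the PFC differences reached from -0.23 (Tek) to 0.35 (Kdr), and those of the Hypo from -0.23 (Cldn5) to 0.27 (Pecam1). The genotype effect itself did not differ detectably between the tissues: the log2 difference of the effects ran from -0.12 (Slco1a4) to 0.27 (Vtn, SE 0.15, adjusted p = 0.51), with 0% of 22282 genes called by edgeR, 11.1% at an unadjusted p under 0.05, and 34 genes called by DESeq2. Without PFC Ube3a2X male 258 edgeR called 250 genes, no member among them.

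By sex, the signs of the PFC values differed, by amounts that turned on single libraries. In males all 10 log2 differences between Ube3a2X and WT were above 0, from 0.10 (Slco1a4) to 0.38 (Cdh5), with a median of 0.26, and in females 9 of 10 were below 0, down to -0.30 (-0.295, Cdh5), with a median of -0.14. Without PFC WT female 397 the median in females was 0.08, above 0, and without PFC WT female 93 it was -0.31. With the filterByExpr filter it was -0.29. Without PFC Ube3a2X male 238 the median in males was 0.12. None was called in either sex, with 0.0275% of genes called in males and 0.00917% in females, and at an unadjusted p under 0.05 there were 5 members in males and 1, Pdgfrb, in females, where 18.3% and 14.6% of all genes had such a p. The interaction of sex and genotype, the male difference minus the female one, was above 0 for all 10 members, from 0.08 (Rgs5) to 0.68 (Cdh5), with a median of 0.39 against 0.00 (0.004) over all genes. Again none was called: Cdh5 (0.68, SE 0.19) and Pdgfrb (0.56, SE 0.15) had an adjusted p of 0.0958 and Flt1 (0.43, SE 0.16) one of 0.118. For the interaction 0% of genes were called by edgeR, although 25.2% had an unadjusted p under 0.05, 3 members among them. The median share of correctly stranded reads was 93.6% in PFC WT males and 99.1% in PFC Ube3a2X males, where male 258 had 92.1%. In WT and Ube3a2X females of the PFC it was 93.1% and 93.9%. The part of this measure in the male differences and in the interaction was not tested.

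Cdh5 in the PFC was 10.1, 12.2, 15.8, 17.4, and 21.1 CPM in WT females and 9.22, 9.82, 14.3, 14.4, and 20.9 CPM in Ube3a2X females. In WT males it was 11.8, 12.5, 14.8, 17.1, and 17.7 CPM and in Ube3a2X males 16.5, 17.8, 18.4, 18.5, and 35.1 CPM. The female groups overlapped almost fully, and 4 of 5 Ube3a2X males lay above every WT male. Pdgfrb was 22.4, 22.8, 28.2, 28.9, and 32.02 CPM in WT females and 17.0, 17.7, 22.0, 24.3, and 29.9 CPM in Ube3a2X females. In WT males it was 21.6, 23.8, 24.5, 25.8, and 26.6 CPM and in Ube3a2X males 26.8, 30.0, 31.3, 31.9, and 40.0 CPM. The female groups overlapped, and the male groups nearly met, at 26.6 and 26.8 CPM. The share of all genes whose male groups separate in this way was not computed, and 18.3% of all genes had an unadjusted p under 0.05 in males.

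**Figure D3:**
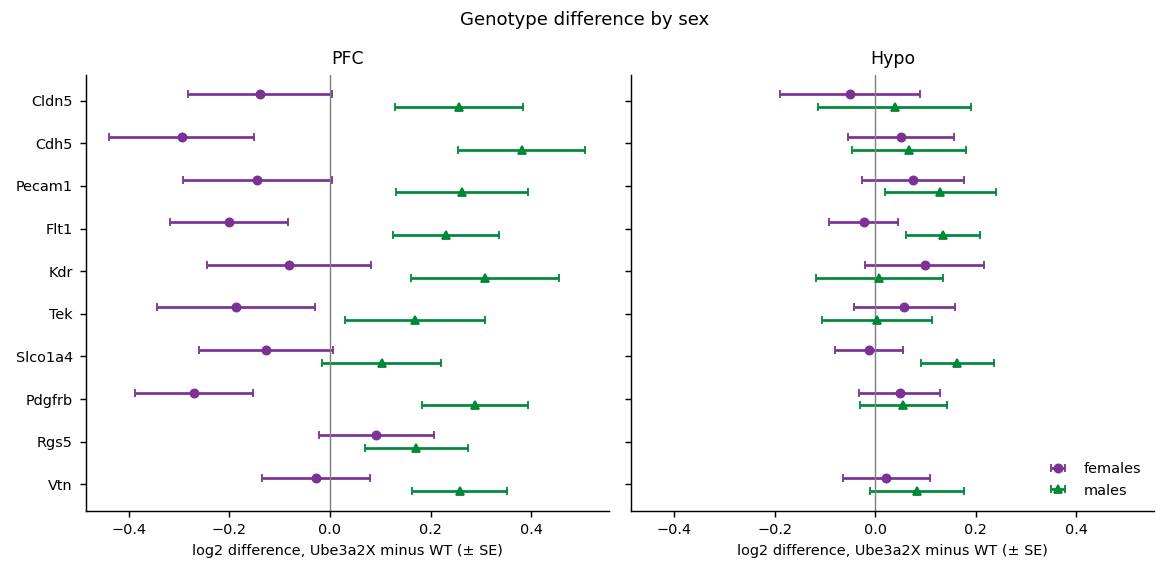
Log2 difference between Ube3a2X and WT, with the SE as bars, for each gene in females (circles) and males (triangles) of the PFC (left) and the Hypo (right). In the PFC males lie right of 0 and females mostly left of it, from 0.38 to -0.30 for Cdh5, none of them called, and in the Hypo, where Rgs5 was not tested, the values lie between -0.05 and 0.16.

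Single libraries moved the interaction. Without PFC WT female 93, which was below its group mean for all 10 genes, 4 members and 14.9% of all genes were called (Cdh5 at 0.86, Flt1 at 0.62, Pecam1 at 0.65, and Pdgfrb at 0.64). Cdh5 and Pdgfrb were called without PFC Ube3a2X female 462 (9.57% of all genes) or without PFC Ube3a2X male 253 (9.56% of all genes). Without PFC WT female 397 the interaction of Tek was -0.02, that of Kdr 0.06, and that of Flt1 0.11 (0.105), those of Cdh5 and Pdgfrb were 0.39 and 0.38 (adjusted p = 0.771 for both), and the median of the members was 0.11 (0.105) in place of 0.39. The interaction of Rgs5 was below 0 without any 1 of 5 libraries (PFC Ube3a2X males 238, 258, and 402, WT female 397, and WT male 256), down to -0.17 without Ube3a2X male 238. Other filters and covariates kept all 10 values above 0 and moved single members by more than 1.5 times: Cldn5 was at 0.17 with a GC and length offset and at 0.89 with RIN as the only covariate, and with components of the quality measures Slco1a4 was at 0.68, Cdh5 at 0.41 (0.405), Pdgfrb at 0.35, and Kdr at 0.21. DESeq2 called Cdh5 (0.66, adjusted p = 0.0254) and Pdgfrb (0.54, adjusted p = 0.0271) and 804 genes in all. Marker lists of other cells also had one sign in this comparison: all 6 oligodendrocyte genes (median 0.36), all 6 astrocyte genes (0.20), and all 6 microglial genes (0.19) had interactions above 0, none called, and 5 of 6 neuronal genes were below 0. Among the 21 further endothelial genes tested, 19 were above 0 with a median of 0.31. Their part in the values of the 10 members was not tested.

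In the Hypo the genotype difference was between 0.00 (0.003) and 0.16 in males and between -0.05 and 0.10 in females. Neither sex had a member called, with 0% and 0.00843% of all genes called in males and females. At an unadjusted p under 0.05 edgeR had 1092 genes in males, with Slco1a4 (0.16, SE 0.07) the only member, and DESeq2 called 17 genes. The interaction lay between -0.09 (Kdr) and 0.18 (0.175, Slco1a4), again with 0% of genes called, 819 genes at an unadjusted p under 0.05, and 0 by DESeq2.

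Sex made no called difference to the members. In the PFC, males minus females ran from -0.03 (Cldn5) to 0.22 (Slco1a4, 0.215, SE 0.09, adjusted p = 0.519), with 0.0917% of genes called. In the Hypo, where 2.3% of genes were called, Slco1a4 had a difference of -0.18 (SE 0.05) with an adjusted p of 0.0721. Its 9 female Hypo libraries had 27.5 to 49.4 CPM and its 9 male libraries 35.5 to 45.2 CPM, and within each genotype the median of males was below that of females, 37.5 against 43.8 CPM in WT and 41.4 against 44.5 CPM in Ube3a2X. DESeq2 called Slco1a4 (1 member), and so did edgeR without Hypo Ube3a2X male 253 or without Hypo WT male 403. Calls over all genes also rose, from 273 in the main fit to 662 with DESeq2 and 663 without Hypo WT male 403. Of the other barrier transport genes, 3 were called for sex in the Hypo: the efflux pump gene Abcg2 (-0.27) and the transferrin receptor gene Tfrc (-0.22) were lower in males, and Slco2b1 (0.23) was higher. Pdgfc (0.27) and Wnt7b (0.20) of the signalling lists were higher in males, and so were the astrocyte gene Gfap (0.51), the hypothalamic neuropeptide gene Agrp (0.83), and the choroid plexus gene Kl (0.36), while the ependymal gene Tmem212 (-0.44) was lower. These are calls of the main fit. Calls for sex in the Hypo fell to 7 genes in all with RIN as the only covariate and to 83 without Hypo WT female 398.

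**Figure D4:**
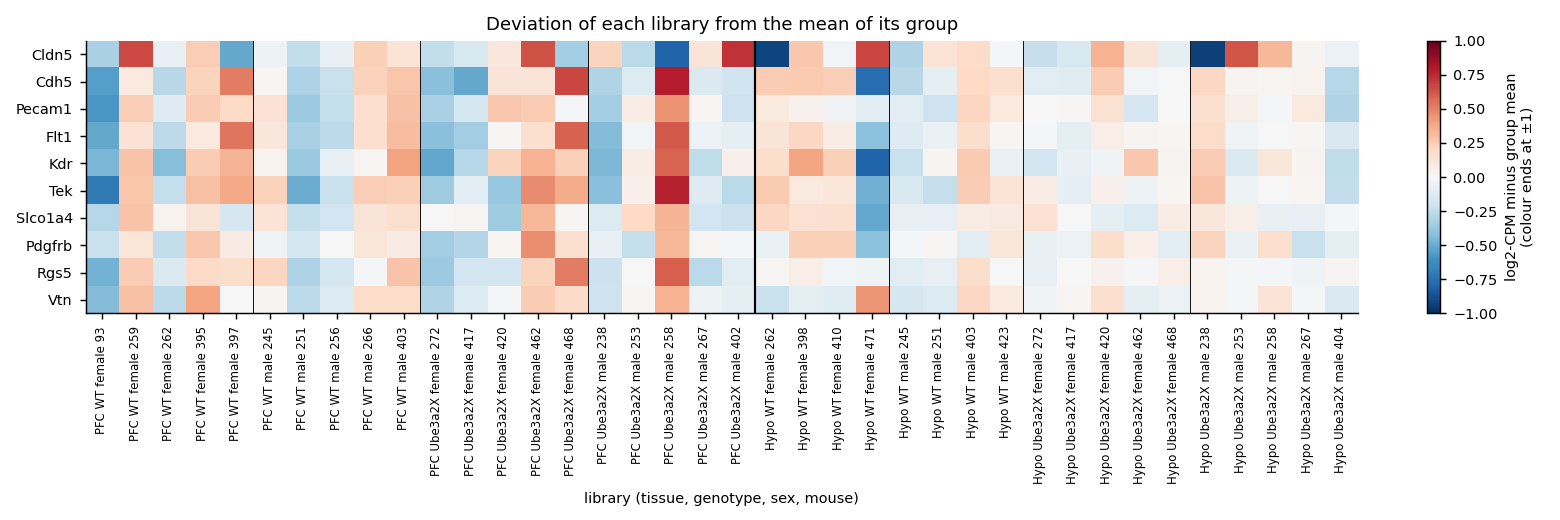
Deviation of each library (columns) from the mean of its group of tissue, genotype, and sex, as log2-CPM, for the 10 genes (rows), with the colour scale ending at 1 and -1. Whole columns share a colour, red for PFC Ube3a2X male 258 and blue for PFC WT female 93, except in the row of Cldn5, where 258 is blue.

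Within groups most of the genes varied together. After each library was centred on the mean of its group, the 45 pairs of members had a median Pearson's r of 0.62 over 38 libraries, from -0.23 to 0.95, and 31 pairs were above 0.5. In the 20 PFC libraries the median was 0.78, with 33 pairs above 0.5 and 4 below 0, and in the 18 Hypo libraries it was 0.47, with 21 pairs above 0.5 and 13 below 0 (0.40, 17, and 6 without Hypo WT female 471, left out after seeing the data). The difference between the tissues was not tested. The endothelial genes Cdh5, Pecam1, Flt1, Kdr, and Tek had r from 0.72 (0.725) to 0.95 over their 10 pairs, with Cdh5 and Flt1 at the top. Their r ran from 0.80 to 0.97 in the PFC and from 0.36 (Pecam1 with Kdr) to 0.95 in the Hypo. Rgs5, a pericyte gene, was about as close to these 5 genes over 38 libraries, from 0.72 (0.724, Kdr) to 0.87 (Flt1), so they were not set apart from the mural genes. The r of Rgs5 with Flt1 and Tek was 0.87 and 0.86 (0.865) over 38 libraries, 0.91 and 0.93 in the PFC, and 0.54 and 0.49 (0.495) in the Hypo. Vtn had r of 0.43 to 0.75 with the 5 genes over 38 libraries and 0.81 to 0.89 in the PFC. These values are descriptions without a test, and the genes of a library share its dissection, RNA, and depth. In PFC Ube3a2X male 258 the level was above the group mean for 9 of 10 members and in PFC WT female 93 for 0 of 10. Those libraries had the highest (2279 CPM) and the lowest (959 CPM) summed level of 6 astrocyte genes in the PFC, and 258 had the lowest of 6 neuronal genes (8053 CPM). The part of these in the shared variation was not tested.

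Cldn5 did not follow the others over the 38 libraries. Its r with the other 9 genes ran from -0.23 to 0.33 with a median of -0.11, from -0.19 to 0.26 in the PFC, and from -0.55 to 0.52 (with Vtn) in the Hypo. Without Hypo WT female 471 that range in the Hypo was -0.37 to 0.32. The same library turned the sign of values of Vtn in the Hypo, whose r with Kdr was -0.45 with it and 0.45 (0.445) without it, and with Cdh5 -0.33 and 0.80. Over all libraries the r of Cldn5 with the mean profile of the members was 0.05, where the other genes had 0.67 to 0.93. Each gene is itself part of that mean, which raises its r. In the PFC the highest library for the other 9 members, Ube3a2X male 258, had 11.2 CPM of Cldn5, the lowest of its group, whose other values were 16.2, 21.3, 22.8, and 32.2 CPM. In the Hypo, WT female 471 had 21.1 CPM, the highest of the tissue, while its Cdh5, Kdr, and Slco1a4 were the lowest, and Ube3a2X male 238 had 4.30 CPM, the lowest of the tissue, while its Flt1 and Kdr were the highest. Cldn5 is the shortest of the 10 transcripts (1416 exonic bases) and the richest in GC (60.5%; the others have 40.3 to 55.3%). No relation of a member to RIN, to the ratio of coverage at the 5′ to the 3′ end, or to AT dropout passed adjustment over 30 relations (1e+05 permutations within groups). The strongest was that of Rgs5 to AT dropout, a Picard score of the loss of AT-rich sequence, with r at -0.53 and Spearman's rho at -0.40 (permutation p = 0.00508 and 0.0251, adjusted p = 0.152 for r). It was -0.65 in the PFC and 0.05 in the Hypo, and -0.27 without the 2 most distant libraries. For Cldn5 and AT dropout r was 0.41 (0.415) and Spearman's rho 0.36 (permutation p = 0.0411 and 0.0566, adjusted p = 0.575 for r), r was 0.46 in the PFC and 0.37 in the Hypo, and it was 0.30 without the 2 most distant libraries.

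**Figure D5:**
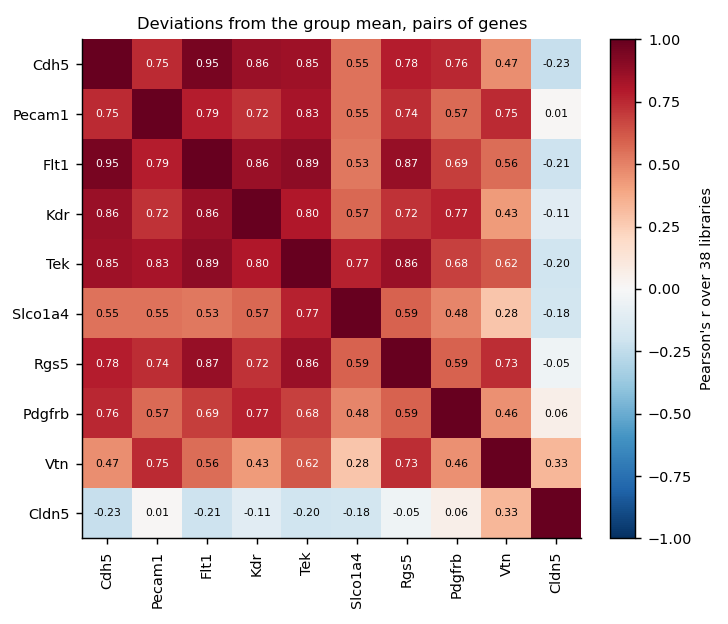
Pearson's r between each pair of the 10 genes over 38 libraries, after each library was centred on its group mean, on a colour scale from -1 to 1. Cdh5, Pecam1, Flt1, Kdr, and Tek have values of 0.72 and above with each other and with Rgs5, and Cldn5 has values between -0.23 and 0.33.

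The genes outside the 10 whose centred profile was most like the members' mean were, in order, Cgnl1 (r = 0.91), Fgf1 (0.91), Sall1 (0.90), She (0.90, 0.895), Itpripl2 (0.89), Mmrn2, Car8, Tgfbr2, Cpt1a, and Plpp3 (0.88 each, the last 0.875), over 38 libraries. Mmrn2, an endothelial matrix gene, was the only one from a list used here. Between the tissues these 10 genes did not share a direction: Fgf1 and Cpt1a were lower in the PFC, with log2 differences of -1.18 (adjusted p = 7.63e-11) and -0.32 (adjusted p = 0.0162), Car8 was higher at 0.36 (adjusted p = 0.018), and the other 7 were not called.

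In GENCODE vM21 on GRCm38 the genes lie at these places, each given as the span of the whole gene. Flt1 (5:147561604-147726011) and Kdr (5:75932827-75978458) share chromosome 5 on the minus strand, and Pecam1 (11:106654217-106750628, minus) and Vtn (11:78499091-78502324, plus) share chromosome 11. Cldn5 is at 16:18776847-18778262 on the plus strand, Cdh5 at 8:104101625-104144511, plus, and Tek at 4:94739289-94874976, plus. Slco1a4 is at 6:141805440-141856199, minus, in a cluster of Slco1a paralogs with which it may share reads. Of the other mural genes, Rgs5 is at 1:169655501-169695813, plus, and Pdgfrb at 18:61045150-61085061, plus. Counts were made over exons of the whole gene, so isoforms such as the soluble form of Flt1 were not separated.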

How the data were processed

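RNA-seq libraries of the PFC (20) and Hypo (18) were compared. For RNA-seq the methods text counts fewer WT mice per sex than the PFC labels give, and all labelled libraries were used. The authors made the libraries from stranded mRNA, sequenced them paired-end, aligned reads with STAR to GRCm38, and deposited featureCounts read counts per gene, unnormalised and unfiltered, on an annotation named Gencode v24; the strand setting of the counting is not given in the sources used here. The authors also deposited, per library and mostly from Picard, RIN and AT dropout as a score, coverage evenness and the 5′ to 3′ bias as a ratio, and the shares of bases by region and of correctly stranded reads as a fraction. The quality row of PFC WT male 266 gives the mouse as 66 and was joined by its sample name.

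From the counts, CPM were computed with TMM factors. Within each tissue, genes were removed that had under 100 reads in at least 2 libraries, then the 15% of lowest variance of log2-CPM (prior count 2), and edgeR 4.0.16 (R 4.3.3; glmQLFit, robust, and glmQLFTest) was fitted with a term for each of 4 sex and genotype groups, with RIN, and with 2 surrogate variables (sva 3.50.0). Tissues were compared in all 38 libraries with 8 groups and RIN on genes kept by filterByExpr, and the genotype effects of the tissues in the same model. A gene was called at a Benjamini-Hochberg adjusted p under 0.05 over all genes tested. Tests within a tissue measure the spread between mice, and the main test between the tissues took the 38 libraries as independent although 13 mice gave 2 each. The 95% intervals used the t distribution with the degrees of freedom of the quasi-likelihood fit. Of the libraries, 13 pairs came from the same mouse by the labels, and the deviations of the paired libraries from their group means correlated with r between -0.57 and 0.41 (median -0.06, -0.055, over 11838 genes). Alternatives used DESeq2 1.42.0, limma 3.58.1 (voom), RLE factors, other filters and covariates, a GC and length offset, the mouse as a replicate block, and each library left out. The pipeline was tested on simulated counts.

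The 10 members and all gene lists were chosen with earlier results of these data known. Named beside them were up to 2 called genes per direction and list with the smallest p between the tissues, list genes called for sex or genotype, and the 10 genes most like the members' mean profile. Of the genes that this rule selects, 1 is left out and is not reported here. Exon lengths, GC content, and coordinates came from GENCODE vM21. The figures were drawn with matplotlib 3.10.9 under Python 3.11.15.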

Additional observations from a re-analysis of the deposited data

Results flagged for a closer look

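A library far from the others of its group was found in 3 of 80 combinations of gene and group, where chance gives about 1 in 20. Cdh5, the VE-cadherin gene, was at 35.1 CPM (35.12) in PFC Ube3a2X male 258, and the other 4 libraries of that group had 16.5 to 18.5 CPM. Cdh5 was at 5.71 CPM (5.707) in Hypo WT female 471, against 11.5 to 11.6 CPM in the other 3. The transporter gene Slco1a4 was at 27.5 CPM (27.52) in the same library, against 43.6 to 45.3 CPM. Hypo WT female 471 was also the library with the highest summed level of pituitary genes, 4588 CPM.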

How the results depend on the processing

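Of the 10 members, 9 were called between the tissues. The members' median log2 difference was 0.53. With 2 surrogate variables 4 were called (median 0.35). With the replicate block for the mouse (13 mice, RIN kept) 0 were called, the median was 0.23, and the difference of Pdgfrb was -0.041, and in the same mice without the block, an alternative chosen after seeing the data, 3 were called. The other alternatives gave 6 to 10, and leaving out 1 library 7 (without Hypo WT male 423) to 10 (without Hypo WT female 398). The replicate block changed no call for the genotype effect between the tissues, where 0 members were called with and without it. DESeq2 called 2 members for the sex*genotype interaction in the PFC and 1 for sex in the Hypo, and leaving out 1 library gave 0 to 4 and 0 to 1. For that interaction, with 1 library left out, Rgs5 ran from -0.166 (without Ube3a2X male 238) to 0.246 and Tek from -0.019 (without WT female 397) to 0.601, both highest without WT female 93. The cause was not tested. No member was called for genotype, in either sex or tissue, or for sex in the PFC under any alternative run.

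Counts over all genes moved by more than 1.5 times, among them genotype in the PFC 2 to 32 with DESeq2 (15 without Ube3a2X male 258), in PFC females 1 to 9 with DESeq2 (7 without WT female 93), in PFC males 3 to 245 with DESeq2 (36 without Ube3a2X male 253), in the Hypo 1 to 5 with DESeq2 (12 without WT male 403), in Hypo females 1 to 3 with DESeq2 (0 without WT female 262), in Hypo males 0 to 17 with DESeq2 (49 without WT male 403), the interaction in the PFC 0 to 804 with DESeq2 (1624 by edgeR without WT female 93), sex in the PFC 10 to 3 with RIN only or 39 with DESeq2, sex in the Hypo 273 to 7 with RIN only or 662 with DESeq2 (from 83, lacking WT female 398, to 663, lacking WT male 403), the genotype effect between the tissues 0 to 34 with DESeq2, 45 with an offset for GC and length, and 296 without the 3 libraries that stood apart (chosen after seeing the data), and the tissues 14116 to 7678 with the replicate block. With no filter on low counts the median of all genes between the tissues was -0.14, and 7 members were called. Counts of the 10 members were 248 or more in every library, and the effect of read depth was not tested.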
